A study of Mus musculus with 6 samples.

Results

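The genes described here encode the anaphase-promoting complex or cyclosome (APC/C) and its regulators. They are 10 of the 21878 genes measured, chosen by name: the E2 enzymes Ube2c and Ube2s, the coactivators Cdc20 and Fzr1, the inhibitor Fbxo5, and the core subunits Anapc1, Anapc2, Anapc4, Cdc16 and Cdc27. These genes and the gene lists below were chosen with earlier results of these data known. Their shares, set beside those of all genes, are therefore descriptive. All 10 were measured, by 12 of the 24903 probes that carry a gene symbol, with 3 probes for Anapc1 and 1 for each of the others. RNA came from ovarian tumours of mice, each 0.5 to 1 cm across, after 24 h with a chronic release pellet of RU486 (3 arrays) or of placebo (3 arrays). RU486 (mifepristone) is an antagonist of the progesterone receptor that also binds and blocks the glucocorticoid receptor. The sample labels give the genotype of all 6 as Pgrcre/+mPgrLsL/+, and the series text gives it as Pgrcre/+PgrBLsL/+, so placebo and RU486 mice alike carried the allele for the B form of the progesterone receptor and a Cre allele at the Pgr locus. The mice's ages and strain were not given in the sources used here, and nothing states that each tumour came from its own animal, so p-values reflect only the spread between these samples, which may be technical.

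The APC/C is a ubiquitin ligase that marks proteins for destruction by the proteasome, and its activity separates sister chromatids at anaphase and ends mitosis. UBE2C attaches the first ubiquitins to a substrate and UBE2S lengthens the chain. CDC20 brings substrates to the complex in mitosis and FZR1 (also called CDH1) does so in late mitosis and G1, while FBXO5 (EMI1) blocks the complex in S and G2 phase. Transcripts of UBE2C, CDC20 and FBXO5 are known to be made periodically in dividing cells, whereas the core subunits are present through the cell cycle.

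Each deposited value is a score: each probe's 6 values were brought to a common mean and spread, so a score counts SDs from that probe's mean. A difference, RU486 mean minus placebo mean, is therefore a standardised difference, with a limit of 1.83 either way. No fold change can be had from it, and it says nothing of which gene is more abundant. Scores were read as rising with probe brightness, which no source used here states. Because a tumour is a mixture of cells, fewer cells of a type and less RNA per cell cannot be told apart.

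Over all genes, 1 gene passed an adjusted p of 0.05 in limma, lower with RU486 (0.00457% of genes), and none passed as higher (0.0%). At an unadjusted p of 0.05, 7.08% of genes were lower and 5.24% higher, and with quantile normalization the 2 counts were 1608 and 683 genes in place of 1548 and 1147. Median scores of the arrays ran from -0.384 in placebo array 1 to 0.212 in placebo array 3. Scores cannot show whether a tissue marker is absent, so the labelled tissue could not be checked. Of 11 marker lists for cells that a tumour piece can hold, 3 had list means that parted the groups the way the APC/C regulators did. B and plasma cell markers (7 of 8 measured) ran from 0.09 to 0.92 in placebo and from -0.73 to -0.05 in RU486 arrays. Skeletal muscle markers (8 of 8) ran from 0.22 to 0.64 and from -0.49 to -0.19. Red cell markers (5 of 6) ran from -0.41 to 2.01 and from -0.53 to -0.51, the highest value being that of placebo array 1. Endothelial markers (10 of 10) had a list mean difference of -0.92, against -0.88, -0.78 and -1.03 for these 3, with 9 of 10 genes negative, but their list means overlapped, from -0.26 to 1.03 and from -1.21 to 0.46. The part of these 4 lists in the results below was not tested.

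All 10 APC/C genes had negative differences, from -1.74 to -0.36 with a median of -1.09, against a median of -0.06 over all genes, of which 51.6% were negative. None passed an adjusted p of 0.05 in limma, and the adjusted p ran from 0.247 to 0.864. At an unadjusted p of 0.05, 4 of the 10 were lower and 0 higher, where 7.08% and 5.24% of all genes were. The same 4 genes, Ube2c, Ube2s, Cdc20 and Fbxo5, had groups that did not overlap, the highest RU486 score lying under the lowest placebo score, as for 10.8% of all genes. They are 4 of the 5 regulators, and none of the 5 core subunits was among them.

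Given here and below in the order of arrays 1 to 3, the Ube2c scores were 0.99, 0.44 and 1.18 with placebo and -0.93, -0.54 and -1.14 with RU486. The highest RU486 array lay 0.98 below the lowest placebo array. The means were 0.87 ± 0.384 and -0.87 ± 0.303 (SD, n = 3), a difference of -1.74 (SE 0.283, 95% interval -2.52 to -0.95, limma adjusted p = 0.247). With 3 against 3 arrays the exact two-sided permutation test cannot go below p = 0.1, and it gave that value for each of the 4 genes.

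Ube2s, the gene of the chain-extending E2, scored 1.14, 0.80 and 0.63 in the placebo arrays and -1.41, -0.55 and -0.61 in the RU486 arrays. The groups were separated by 1.18, and RU486 array 1 stood well below the other 2 arrays of its group. Its difference was -1.71 (SE 0.314, 95% interval -2.59 to -0.84, limma adjusted p = 0.275). Ube2s did not order the arrays as the other 3 separated regulators did: its highest score was on placebo array 1, whereas that of Ube2c, Cdc20 and Fbxo5 was on placebo array 3. After the group means were taken out, its correlation over the 6 arrays was 0.10 with Ube2c, -0.33 with Cdc20 and -0.46 with Fbxo5, while Cdc20 and Fbxo5 had 0.94 with each other. These correlations describe 6 arrays that share their labelling and scaling.

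The coactivator genes differed in how the arrays lined up. Cdc20 scored 0.66, 0.55 and 1.36 in placebo and -0.79, -0.59 and -1.20 in RU486 arrays, with a gap of 1.14 between the groups and a difference of -1.72 (SE 0.312, 95% interval -2.58 to -0.85, limma adjusted p = 0.272). Fzr1 scored -0.81, 1.14 and 0.96 in placebo and -0.57, 0.53 and -1.24 in RU486 arrays. Its groups overlapped, since placebo array 1 lay below 2 of the RU486 arrays, and the difference was -0.85 (SE 0.807, 95% interval -3.09 to 1.39, limma adjusted p = 0.735). The score of Cdc20 minus that of Fzr1 was itself compared: it was 1.48, -0.59 and 0.41 in placebo and -0.22, -1.12 and 0.04 in RU486 arrays. That gives -0.86 (95% interval -2.79 to 1.06, exact permutation p = 0.4, two-sided), so Cdc20 and Fzr1 were not shown to respond differently. Of the 3 other pairs compared in this way (Ube2c and Ube2s each with the core subunit gene Cdc27, and Fbxo5 with Fzr1), none gave an exact permutation p under 0.3.

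Fbxo5, the inhibitor gene, scored 0.50, 0.66 and 1.42 in placebo and -0.79, -0.70 and -1.09 in RU486 arrays. The groups lay 1.20 apart, the widest gap of the 10 genes, and the RU486 arrays were close together (SD 0.207). The difference was -1.72 (SE 0.31, 95% interval -2.58 to -0.86, limma adjusted p = 0.272). With any 1 array left out, Ube2c, Ube2s, Cdc20 and Fbxo5 each kept an unadjusted p under 0.05 in limma, while the share of all genes lower at that p ran from 4.59% to 8.97%.

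**Figure D1:**
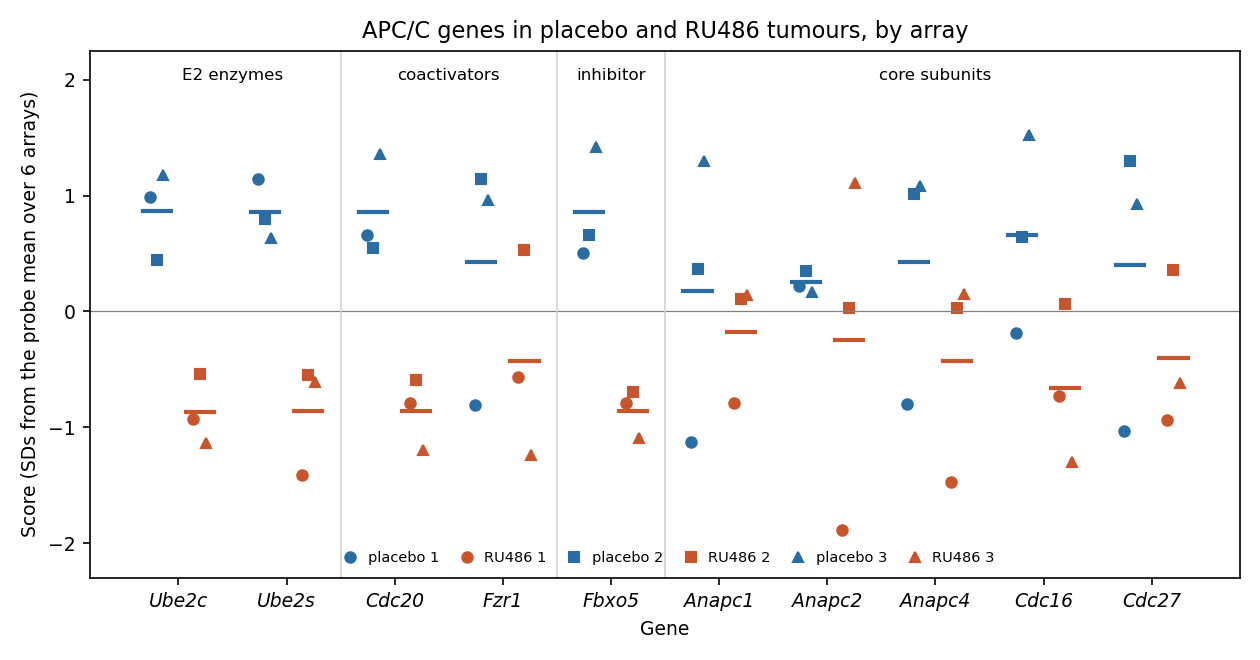
Scores of the 10 APC/C genes (vertical axis, SDs from the probe mean over the 6 arrays) in 3 placebo arrays (blue) and 3 RU486 arrays (orange), with a marker shape for each replicate number and a horizontal bar at each group mean; Anapc1 is the mean of 3 probes. The groups are separated for Ube2c, Ube2s, Cdc20 and Fbxo5 and overlap for Fzr1 and the 5 core subunits, where placebo array 1 is often low.

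The promoters of the 4 separated regulators are shown because these are the members whose scores separated the groups, with that of Fzr1 for contrast. The sequences are from RefSeq on mouse build GRCm38.p6, which held a window for all 10 genes, and run 5′ to 3′ on the gene's strand from 250 bases before the annotated start to 50 bases after it. Ube2c lies at chr2:164769679-164769978 on the plus strand. Ube2s lies at chr7:4812291-4812590, Cdc20 at chr4:118437294-118437593, Fbxo5 at chr10:5805416-5805715 and Fzr1 at chr10:81378321-81378620, all on the minus strand. Capitals mark a CHR (cell cycle genes homology region, a binding site of the DREAM and MuvB complexes) or a CCAAT box (bound by NF-Y), on either strand.
Ube2c: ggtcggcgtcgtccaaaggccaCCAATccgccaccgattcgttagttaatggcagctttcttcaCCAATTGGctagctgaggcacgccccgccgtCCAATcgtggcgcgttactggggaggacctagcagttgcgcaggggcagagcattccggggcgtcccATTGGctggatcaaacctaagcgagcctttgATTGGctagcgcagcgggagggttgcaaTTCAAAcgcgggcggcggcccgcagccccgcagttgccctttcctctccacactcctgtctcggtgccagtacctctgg
Ube2s: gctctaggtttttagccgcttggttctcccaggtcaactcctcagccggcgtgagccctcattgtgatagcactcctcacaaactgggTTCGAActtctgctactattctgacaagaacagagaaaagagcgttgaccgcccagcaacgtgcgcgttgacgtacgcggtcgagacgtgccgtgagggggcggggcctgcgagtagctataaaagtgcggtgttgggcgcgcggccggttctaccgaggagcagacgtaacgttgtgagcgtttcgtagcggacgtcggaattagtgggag
Cdc20: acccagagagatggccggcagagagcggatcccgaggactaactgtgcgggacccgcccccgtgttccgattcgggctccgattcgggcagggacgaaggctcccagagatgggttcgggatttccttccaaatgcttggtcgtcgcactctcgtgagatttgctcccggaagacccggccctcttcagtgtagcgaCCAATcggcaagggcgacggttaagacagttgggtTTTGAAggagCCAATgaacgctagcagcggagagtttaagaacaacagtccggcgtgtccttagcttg
Fbxo5: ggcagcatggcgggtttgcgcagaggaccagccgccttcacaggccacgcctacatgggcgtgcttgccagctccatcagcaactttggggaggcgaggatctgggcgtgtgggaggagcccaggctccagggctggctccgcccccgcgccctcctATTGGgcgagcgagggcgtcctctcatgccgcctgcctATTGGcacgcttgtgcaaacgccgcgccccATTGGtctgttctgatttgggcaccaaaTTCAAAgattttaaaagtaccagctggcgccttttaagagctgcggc
Fzr1: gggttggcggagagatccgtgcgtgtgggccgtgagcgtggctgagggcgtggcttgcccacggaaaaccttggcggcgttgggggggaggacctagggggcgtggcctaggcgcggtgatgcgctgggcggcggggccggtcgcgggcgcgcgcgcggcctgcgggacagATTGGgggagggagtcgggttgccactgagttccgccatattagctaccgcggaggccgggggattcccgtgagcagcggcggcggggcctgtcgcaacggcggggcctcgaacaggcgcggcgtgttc

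The CHR was searched as TTNGAA with T or C at the N, and the CCAAT box as CCAAT, both on either strand. CHR letters were in the windows of all 4 separated regulators and of 0 of the other 6 members, against 19.2% of all 32851 promoter windows. Counted from the annotated start, with negative positions before it, their first base was at -29 in Ube2c, -18 in Cdc20, -162 in Ube2s and 4 in Fbxo5. CCAAT letters were in the windows of 3 of the 4 (6 matches in Ube2c, of which 2 overlap on opposite strands, 2 in Cdc20 and 3 in Fbxo5) and of 2 of the other 6 (Fzr1 and Cdc27), against 37.4% of all windows. E2F letters, searched as TTNNCGC on either strand with each N a C or a G, were in 9.57% of all windows and in 0 of the 10. A match describes letters in a window, and no binding was measured. The split into 4 and 6 members was made from the scores described here. In no pair compared above was a separated regulator shown to respond differently from another member.

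**Figure D2:**
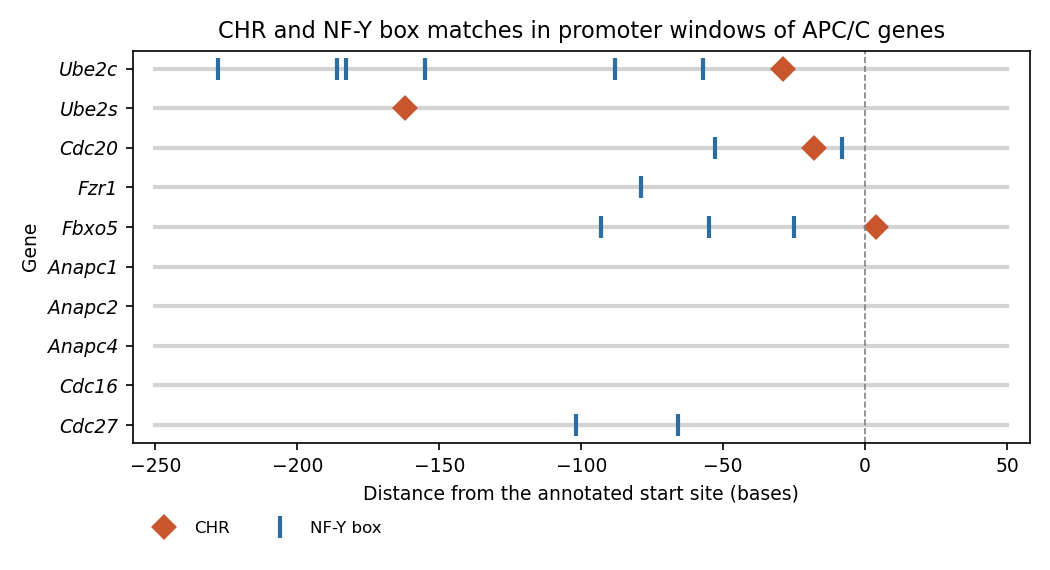
Positions of CHR letters (orange diamonds) and of the NF-Y box, which is the CCAAT box (blue bars), in the 10 promoter windows; the horizontal axis is the distance in bases from the annotated start (dashed line), and grey lines span each window. The 4 diamonds are in Ube2c, Ube2s, Cdc20 and Fbxo5, and the other 6 windows have none.

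The 5 core subunits had differences from -1.32 to -0.36, and none reached an unadjusted p of 0.05. Cdc16, one of the subunits built of tetratricopeptide repeats, came closest, with -0.19, 0.64 and 1.52 in placebo and -0.73, 0.06 and -1.30 in RU486 arrays. Only placebo array 1 and RU486 array 2 broke the separation, and the difference was -1.32 (SE 0.632, 95% interval -3.07 to 0.44, limma adjusted p = 0.465). With quantile normalization its unadjusted p was 0.0492.

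Cdc27, the repeat subunit that the coactivators dock on, scored -1.03, 1.30 and 0.93 in placebo and -0.94, 0.36 and -0.62 in RU486 arrays, a difference of -0.80 (SE 0.82, limma adjusted p = 0.745). Anapc4, a subunit of the platform, scored -0.80, 1.01 and 1.08 in placebo and -1.47, 0.03 and 0.15 in RU486 arrays, a difference of -0.86 (SE 0.806, limma adjusted p = 0.734). Placebo array 1 lay below all RU486 arrays in Cdc27 and among them in Anapc4, and in both genes the other 2 placebo arrays lay above all 3 of them.

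Anapc1, the scaffold subunit, averaged -1.13, 0.37 and 1.30 in placebo and -0.79, 0.11 and 0.14 in RU486 arrays. Its 3 probes gave differences of -0.95, -0.73 and 0.59, and their average was -0.36 (SE 0.771, limma adjusted p = 0.864). The probe with the positive difference had its lowest score, -1.77, on placebo array 1, and the probes correlated with each other at 0.52 to 0.69 over the 6 arrays. Without placebo array 3 the average turned to 0.20.

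Anapc2, the cullin subunit, which with the RING subunit Anapc11 forms the catalytic core, had tight placebo scores of 0.22, 0.35 and 0.17. Its RU486 scores were -1.89, 0.03 and 1.11, so the RU486 arrays lay on either side of the placebo group (SD 1.52 against 0.0938). The difference was -0.49 (SE 0.879, limma adjusted p = 0.84), and without RU486 array 1 it was 0.33.

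Placebo array 1 set much of the overlap. In Fzr1, Anapc1, Anapc4 and Cdc27 it was the lowest or second lowest of the 6 arrays, and without it their differences were -1.47, -1.02, -1.47 and -1.51, with unadjusted p from 0.0632 to 0.147 in limma. The median difference of the 6 members other than the 4 separated regulators moved from -0.83 to -1.47 without that array. The median of all genes moved too, from -0.06 to -0.31. Leaving out placebo array 2 gave -0.47 for the 6 members (all genes 0.06), and placebo array 3 gave -0.53 (all genes 0.20). Leaving out RU486 array 1 gave -0.43 (all genes 0.14), RU486 array 2 gave -1.13 (-0.36) and RU486 array 3 gave -0.84 (-0.02). Placebo array 1 also had the lowest median score over all probes, at -0.384, and RU486 array 1 came next at -0.363. RU486 array 1 was likewise the lowest or second lowest array in Anapc1, Anapc4 and Cdc27, though not in Fzr1. After every array was centred on its median, which moved the median difference of all genes from -0.06 to 0.11, the 4 differences were -0.68, -0.19, -0.69 and -0.63, and those of the separated regulators lay between -1.57 and -1.55.

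**Figure D3:**
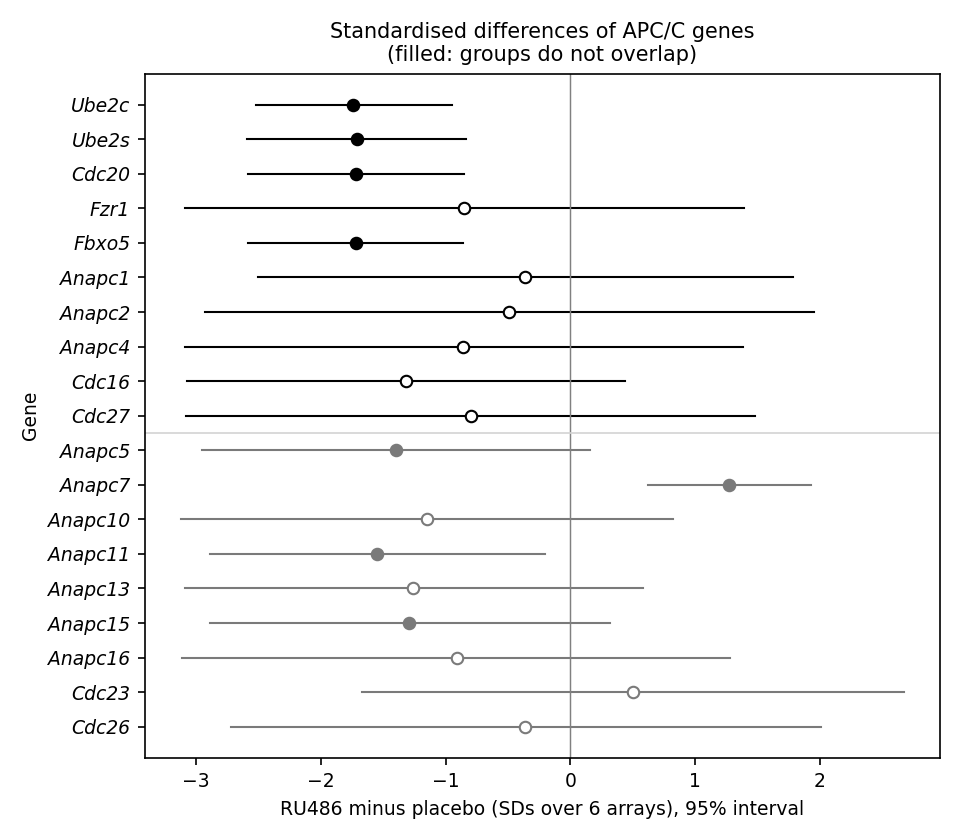
Standardised differences (RU486 minus placebo, SDs over the 6 arrays) with 95% intervals from limma for the 10 APC/C genes (black) and the 9 other core subunits (grey); filled points mark genes whose groups do not overlap. The intervals of Ube2c, Ube2s, Cdc20 and Fbxo5 lie below 0, those of the 5 core subunits among the members span it, and that of Anapc7 lies above it; intervals are not bounded by the limit of 1.83.

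The 9 other core subunits were read in the same fit. Their median difference was -1.15, 7 were negative and 2 positive, and none passed an adjusted p of 0.05 in limma. With an unadjusted p under 0.05 there was 1 lower (Anapc11) and 1 higher (Anapc7), 11.1% each against 7.08% and 5.24% of all genes. The groups did not overlap in 3 with lower scores and in 1 with higher scores, against 10.8% and 11.2% of all genes. Anapc11, the RING subunit, scored 0.53, 0.81 and 0.98 in placebo and -1.71, -0.28 and -0.34 in RU486 arrays (difference -1.55, SE 0.484, limma adjusted p = 0.39). Anapc5, a platform subunit, stood at -1.40 (SE 0.561) and Anapc15, which takes part in turnover of the mitotic checkpoint complex, at -1.29 (SE 0.578), both with separated groups and an unadjusted p over 0.05. The Anapc15 score is the mean of 4 probes. The groups overlapped in its probes with differences of -1.31 and -0.99 and were separated in those with -1.53 and -1.33.

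Anapc7, a repeat subunit, differed in the opposite direction, with -0.95, -0.18 and -0.78 in placebo and 0.59, 0.63 and 0.69 in RU486 arrays. Every RU486 array lay above every placebo array. The difference was 1.27 (SE 0.236, limma adjusted p = 0.278, unadjusted p = 0.00575). Of its 2 probes, 1 gave 1.50 with separated groups (limma unadjusted p = 0.0437) and the other 1.04 with overlapping groups (limma unadjusted p = 0.238). The first scored 1.0, -0.06 and 1.31 in RU486 arrays and the second 0.17, 1.33 and 0.06. The close RU486 scores of Anapc7 are therefore those of the mean and of neither probe. Over all 14 core subunits, members included, the median was -0.88, and an unadjusted p under 0.05 was reached by 1 lower and 1 higher gene (7.14% each, close to the shares of all genes). The median was -0.44 without RU486 array 1 and -0.59 without placebo array 2. No subunit was lower at that threshold without placebo array 2 or without placebo array 3, where 5.52% and 5.17% of all genes were.

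The genes that hold the complex in check at the spindle, or otherwise act on it, had a median of -1.29 over 14 measured genes of 15, 13 of them negative. With an unadjusted p under 0.05 there were 6 lower (42.9%, against 7.08% of all genes) and 0 higher genes, 8 did not pass, and none passed an adjusted p of 0.05 in limma. The groups did not overlap in 8 genes with lower scores (57.1%, against 10.8% of all genes) and in 1 with higher scores, Usp44, singled out after its values were seen (difference 0.88, SE 0.344, limma unadjusted p = 0.0634). Bub1, a checkpoint kinase, scored 0.55, 0.63 and 1.39 in placebo and -0.86, -0.54 and -1.17 in RU486 arrays (difference -1.71, SE 0.324). Ttk (MPS1), the kinase that starts checkpoint signalling, stood at -1.68 (SE 0.359), Mad2l1, whose protein binds and holds CDC20, at -1.65 (SE 0.386), and Mad1l1, which recruits MAD2 to kinetochores, at -1.64 (SE 0.399). The count of 6 was 3 without RU486 array 3 and 4 without RU486 array 1, where 5.29% and 4.59% of all genes were lower.

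Among genes of APC/C substrates, 26 of 27 had negative differences. An unadjusted p under 0.05 was reached by 25 lower and 1 higher gene of the 27 measured (28 listed), and 1 did not pass, where 7.08% and 5.24% of all genes were lower and higher. The median was -1.70, and none passed an adjusted p of 0.05 in limma. Nusap1, a microtubule-binding protein of the spindle, scored 0.92, 0.67 and 1.11 in placebo and -0.90, -0.74 and -1.06 in RU486 arrays (difference -1.80, SE 0.157, limma adjusted p = 0.165). Cdca3, a mitotic entry factor, stood at -1.75 (SE 0.253), the phosphatase gene Cdc25a at -1.74 (SE 0.283) and Anln, of the cytokinetic ring, at -1.73 (SE 0.288). Aurkb, the kinase of the chromosomal passenger complex, was the 1 gene with a positive difference, at 1.49 (SE 0.527, limma adjusted p = 0.39), from -0.27, -0.72 and -1.24 in placebo and 1.02, -0.13 and 1.34 in RU486 arrays. Pttg1, the securin gene, singled out here after its values were seen, was the 1 that did not pass, with -1.01, -1.48 and 0.91 in RU486 arrays against 0.71, 0.25 and 0.62 in placebo arrays. With any 1 array left out, from 21 to 24 substrate genes were lower at an unadjusted p of 0.05, where the share of all genes ran from 4.59% to 8.97%. Aurkb kept its sign but missed that p in 8 of 13 alternatives, among them 5 of the 6 fits without an array. It was read by 1 probe, so no second probe could be set beside it.

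Further along the same path, separase and cohesin genes had a median of -1.05 over 11 genes, and 4 of them were lower with an unadjusted p under 0.05 (36.4%, against 7.08% of all genes), with 0 higher. Without placebo array 1 the median was -1.65. The 4 were Rad21, the cohesin subunit that separase cuts, at -1.78 (SE 0.204), the cohesin subunit gene Stag2 at -1.72 (SE 0.312), Cdca5 (sororin), which protects cohesin and is an APC/C substrate, at -1.72 (SE 0.306), and Espl1, the separase gene, at -1.67 (SE 0.365). Rad21 scored 0.63, 1.07 and 0.96 in placebo and -1.01, -0.58 and -1.07 in RU486 arrays.

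Genes of the kinases and phosphatases that switch the complex had a median of -1.13 over 11 measured genes of 12, 5 of them lower (45.5%, against 7.08% of all genes) and 0 higher with an unadjusted p under 0.05. Of those 5, Plk1 and Ccnb2 were also counted among the substrate genes above. Without RU486 array 1 the median was -0.74. Mastl (Greatwall), a kinase that restrains a phosphatase in mitosis, scored 0.94, 0.60 and 1.12 in placebo and -1.07, -0.57 and -1.01 in RU486 arrays (difference -1.77, SE 0.221). The mitotic kinase genes Plk1 and Cdk1 each stood at -1.73 (SE 0.288 and 0.297), and the cyclin gene Ccnb2 at -1.72 (SE 0.309). In neither of these lists did a gene pass an adjusted p of 0.05 in limma.

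**Figure D4:**
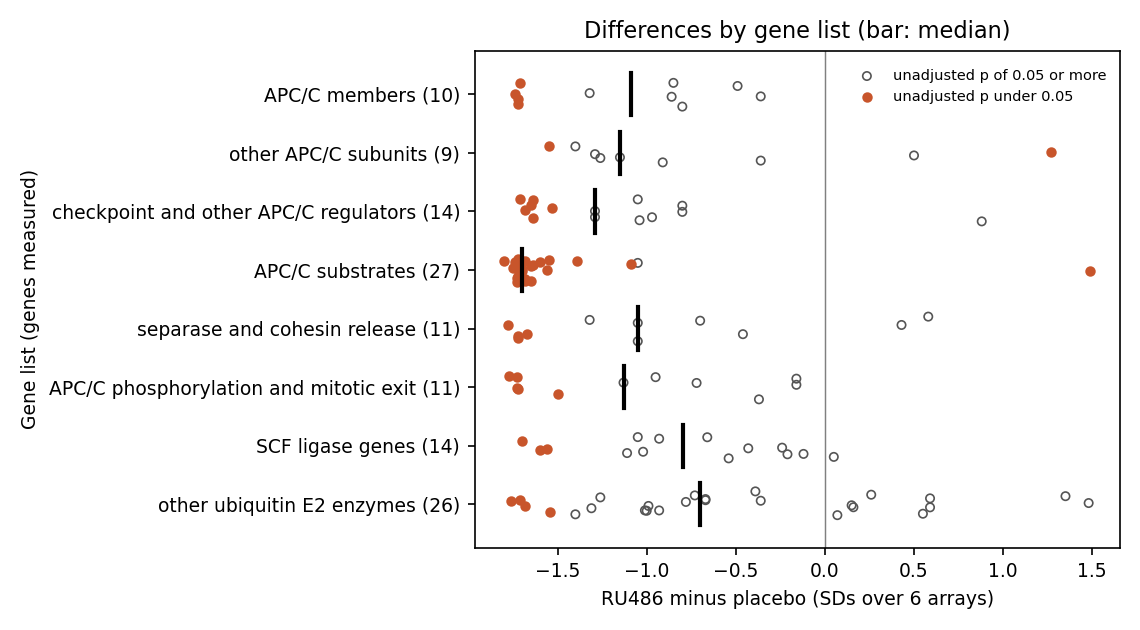
Standardised differences (horizontal axis, RU486 minus placebo in SDs over the 6 arrays) of the genes in each list, 1 point per gene, filled where the unadjusted limma p is under 0.05, with a black bar at the list median; vertical scatter within a row carries no value. The substrate list gathers near its median of -1.70, while the 26 other ubiquitin E2 genes spread from -1.76 to 1.48.

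Other ubiquitin enzymes were set beside these. Among 26 measured E2 genes of 28, other than Ube2c and Ube2s, the median was -0.70, and an unadjusted p under 0.05 was reached by 4 lower (15.4%) and 0 higher genes, against 7.08% and 5.24% of all genes, while 22 did not pass. The 4 were Ube2e3 at -1.76 (SE 0.251), Ube2v1 at -1.71 (SE 0.326), Ube2t, the E2 of the Fanconi pathway, at -1.68 (SE 0.352), and Ube2j1, an E2 of the endoplasmic reticulum, at -1.54 (SE 0.487). The groups did not overlap in 5 E2 genes with lower scores (19.2%) and in 2 with higher scores, against 10.8% and 11.2% of all genes. Without RU486 array 2 there were 7 lower E2 genes, where 7.14% of all genes were lower. Without RU486 array 1 the E2 median was -0.15, with 14 of 26 negative, where the median of all genes was 0.14. Genes of the SCF ligases, which share cell cycle substrates with the APC/C, had a median of -0.80 over 14 measured genes of 17, with 3 lower (21.4%) and 0 higher. Those 3 were Ccnf (cyclin F) at -1.70 (SE 0.336), Cks1b at -1.60 (SE 0.444) and the F-box gene Skp2, itself an APC/C substrate, at -1.56 (SE 0.474), and the scaffold gene Cul1 stood at -1.11 (SE 0.725) with overlapping groups. Dropping placebo array 3 or RU486 array 1 or 3 left 1 such SCF gene of 14, where 5.17%, 4.59% and 5.29% of all genes were lower. Dropping RU486 array 2 gave 5 SCF genes, where 7.14% of all genes were lower. The SCF median was -0.33 without RU486 array 1 and -1.27 without RU486 array 2. None of these E2 and SCF genes passed an adjusted p of 0.05 in limma.

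The score patterns most like those of 4 of the members were looked up over all genes, as correlations over 6 arrays that share their labelling and scaling. For Cdc20 the closest were Cdca5 (0.9984), Ccnb2 (0.9977) and Bub1 (0.9971), and 308 genes (1.41%) reached a correlation of 0.95, 19 of the substrate genes among them. For Ube2c they were Anln (0.9975), Lsm2 (0.9974) and Birc5 (0.9963), with 265 genes at 0.95 and 13 substrate genes. For Fzr1 the closest were 2610206C17Rik (0.9971), Tbl3 (0.9939) and Med24 (0.9914), with 131 genes and 0 substrate genes. For Cdc27 they were Ythdc1 (0.9974), Pias1 (0.9967) and Ano4 (0.9966), with 277 genes and 0 substrate genes. These substrate counts follow from the treatment differences already given and add no separate evidence. A substrate gene with an unadjusted p under 0.05 could not reach 0.95 with Fzr1 or Cdc27, whose scores follow treatment only weakly. Among the members, the 6 pairs of the separated regulators correlated at 0.83 to 0.99 over the arrays, as genes with separated groups must to some degree, and at -0.46 to 0.94 after the group means were taken out. Fzr1, Anapc1, Anapc4 and Cdc27 correlated with each other at 0.67 to 0.94, and at 0.61 to 0.92 after the group means were taken out. Between the separated regulators and these 4 genes the correlations ran from 0.18 to 0.63, and from -0.23 to 0.70 after the group means were taken out. On that second measure Cdc16 ran from -0.28 (Ube2s) to 0.90 (Fbxo5) with the separated regulators and from 0.53 (Anapc4) to 0.89 (Fzr1) with the other 4 genes.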

How the data were processed

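The deposited table holds 37932 probes on 6 single-colour (Cy3) arrays. Its values are scores that the authors had already centred and scaled per probe: within rounding, probe means over the arrays are 0 and probe SDs are 1. Partek was used, per the submitters' processing notes. How background, normalization, filters and log scale were handled is not given in the sources used here; signal over background is unknown, and the number of arrays limits the precision.

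Groups and replicate numbers came from the sample titles. The platform annotation lists 1 gene symbol for 24903 probes, several for 0 and none for 13029. A gene's score is the mean over its probes (21878 genes, 19235 with 1 probe). A linear model of treatment was fitted per gene over the 6 arrays (limma 3.58.1, R 4.3.3), using the ordinary two-sided statistic with 4 residual degrees of freedom, which per-probe scaling leaves unchanged for a gene with 1 probe. Benjamini-Hochberg adjustment ran across all genes. The fit was tested on simulated data. Brightness filters and fold limits could not be applied to scores.

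The members and lists were chosen with earlier results of these data known. Named genes are the 10 members, the 4 genes of smallest unadjusted p in each list, any gene of a list at an unadjusted p under 0.05 against the sign of its median, and the 3 genes most correlated with Ube2c, Cdc20, Fzr1 and Cdc27. Alternatives were median centring, quantile normalization, eBayes, a replicate block, array weights, the first probe of a gene, rescaled gene means and leaving out each array.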

Additional observations from a re-analysis of the deposited data

How the results depend on the processing

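The count of APC/C genes past an adjusted p of 0.05 was 0 in limma and stayed 0 under all 13 alternatives, and the lowest adjusted p of any member was 0.0803, with array weights. The count lower at an unadjusted p of 0.05 was 4 (7.08% of all genes), and 4 with each array left out in turn, 5 with quantile normalization (7.35%), 7 with array weights (13.3%), and 2 with the replicate block (5.1%), where Ube2c and Anapc4 passed. With the block the lower genes numbered 15 of 27 substrates in place of 25, 0 of 14 checkpoint and other regulators in place of 6 (1 was higher), 0 of 14 SCF genes in place of 3, and 3 of 14 core subunits in place of 1, as with quantile normalization. With array weights, under which the median of all genes was -0.28, core subunits gave 5, other E2 genes 8 in place of 4, and separase and cohesin genes 6 in place of 4. With the block, Ube2s, Cdc20 and Fbxo5 had unadjusted limma p of 0.0547, 0.058 and 0.0501, on fewer residual degrees of freedom. Whether the replicate numbers pair the arrays is not known. Deviations from the group means of same-numbered arrays correlated at 0.254, 0.054 and -0.272, and those of differently numbered arrays at -0.36 to 0.357. With 3 arrays per group these values cannot exclude a pairing. Array weights ran from 0.342 for RU486 array 2 to 4.96 for placebo array 2, and the cause of the higher count was not tested. Over all genes the count past an adjusted p of 0.05 was 1. It was 0 with median centring, quantile normalization, eBayes and the replicate block, 7 with array weights, and from 1 to 3 with an array left out. Of 47 named genes under 13 alternatives, 2 of 611 differences changed sign: Anapc1 without placebo replicate 3 (0.20, range over the arrays left out -1.02 to 0.20) and Anapc2 without RU486 replicate 1 (0.33, range -1.17 to 0.33). No named gene passed an adjusted p of 0.05 under any of them. A filter on dim probes could not be run on scores.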
